A study of Mus musculus with 10 samples.

Results

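The genes described here are the parts of the Wnt pathway, from the secreted ligands to the transcription factors at its end, in 4T1 mammary tumors with and without a guide RNA against TAZ. They were taken by gene symbol: the Wnt ligands, the Frizzled receptors, the DKK and SFRP antagonists, the R-spondins and their LGR receptors, and single genes of the pathway, among them the co-receptors Lrp5 and Lrp6, beta-catenin (Ctnnb1) and the feedback target Axin2. The mouse annotation holds 62 such symbols, of which 54 have a row among the 17864 genes of the count table. The other 8 (Wnt1, Wnt3a, Wnt8a, Wnt8b, Dkk1, Dkk4, Rspo2 and Rspo4) were not analysed here. Enough reads for a test were found for 49 of the 54 members, against 14816 of all genes. The 5 members below the filter, Wnt3, Wnt9b, Wnt16, Fzd10 and Sfrp5, had at most 15 counts in any tumor, the highest being Wnt3 in the third sgCon tumor.

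4T1 is a mouse mammary carcinoma line, used by the study as a model of triple-negative breast cancer. The cells carried Cas9 together with a control guide RNA (sgCon, 5 tumors) or with a guide RNA that targets Wwtr1, which encodes TAZ (sgTaz, 5 tumors), and total RNA of whole tumors was sequenced, so that each value sums RNA of tumor cells and of the host cells around them. Per the methods, each host was a female BALB/c or SCID mouse of 6 to 8 weeks, which received 100000 4T1 cells in its 4th mammary fat pad, and it is not stated which strain carried the sequenced tumors or whether the edited cells were a pool or a clone. Guide RNAs act in the injected cells only, and host cells keep an intact Wwtr1.

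Wnt proteins are lipid-modified ligands that bind a Frizzled receptor together with LRP5 or LRP6. Without a ligand, a complex of APC, AXIN and GSK3B marks beta-catenin for destruction, and with a ligand that complex is held back, so that beta-catenin accumulates, enters the nucleus and works with TCF and LEF factors on target genes such as Axin2. The pathway maintains mammary stem and progenitor cells, and TAZ itself is held in the same destruction complex.

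Wwtr1 was at 192, 181, 115, 171 and 156 CPM in sgCon tumors and at 86.6, 104, 110, 139 and 102 CPM in sgTaz tumors, where CPM is the count of a gene scaled by the TMM-normalized library size. Its log2 fold change, sgTaz over sgCon, was -0.59 (standard error, SE, 0.15), and its adjusted p was 0.096 in edgeR and 0.013 in DESeq2, within 0.013 to 0.233 over all alternative settings. The groups overlapped, with 4 of 5 sgTaz tumors below every sgCon tumor. The depth of the sgCon tumors ran from 14753922 to 19595821 counts and that of the sgTaz tumors from 12185383 to 18395558 counts. All 10 epithelial markers listed for the tumor cells were found in every tumor, with a summed level of 1654 to 5254 CPM. The third sgCon tumor and the fifth sgTaz tumor stood apart from the rest of their groups in genes of lymphocytes and lymph node stroma. The B cell markers summed to 1047 CPM in sgCon tumor 3 against 79.6 to 487 in the other sgCon tumors, and to 247 CPM in sgTaz tumor 5 against 8.20 to 25.6 in the other sgTaz tumors. Counts of members, and the named members whose values moved most, are also given without these 2 tumors.

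With edgeR's quasi-likelihood test, 0 of the 49 members had an adjusted p below 0.05, as did 0.00675% of all genes tested. At an unadjusted p below 0.05, 13 members were higher in sgTaz tumors, where 9.86% of all genes were, and 1 member, Axin2, was lower, where 11.9% of all genes were. DESeq2, the test named in the methods, called 5 members higher at an adjusted p below 0.05 against 3.6% of all genes, and 0 lower against 3.62%. These were the ligand Wnt6, the receptors Fzd5 and Ror1, the antagonist Sfrp1 and the kinase Gsk3b. limma-voom with quality weights called 5 members higher (Fzd5, Ror1, Lgr6, Sfrp1 and Gsk3b) against 4.63% of all genes, and 2 lower (Porcn and Wnt7a) against 5.8%. At an unadjusted p below 0.05, DESeq2 had 13 members higher and 1 lower, while limma-voom had 16 higher and 8 lower. The 8 were Axin2, Dkk3, Porcn, Ror2, Tcf7l2, Wnt11, Wnt5a and Wnt7a, so the near absence of lower members depended on the test. The shares of all genes for these tests at that threshold are not given here. Without overlap between the groups, 1 member, Lgr6, was higher in sgTaz tumors, where 2.44% of all genes were, and 0 were lower, where 2.13% were.

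The log2 fold change was above 0 for 33 members and below 0 for 16, against 6961 and 7855 of all 14816 genes tested. Its median over the members was 0.25, against -0.02 over all genes tested. Without sgCon tumor 3 and sgTaz tumor 5, the median of the members was 0.08 against -0.004 over all genes, 10 members were higher and 2 lower at an unadjusted p below 0.05, where 8.98% and 9.58% of all genes were, and Sfrp1 alone was called by edgeR, where 1.26% of all genes were. The 10 members higher in that fit were among the 13, and Ctnnb1, Fzd6 and Lrp6 were no longer included. The 2 members lower in it were Axin2 and Ror2. Of the named members, Lrp6 had a log2 fold change of 0.20 in that fit, Wnt9a of 0.30, Fzd1 of 0.07, Tcf7l1 of 0.08 and Wnt7b of -0.05, while those of Axin1, Lgr5, Rnf43 and Sfrp2 turned to 0.04, -0.01, 0.08 and -0.32. sgCon tumor 3 was the lowest sgCon tumor for 29 of the 49 members (59.2%), and for 28.7% of all genes tested. Among the 13 members that were higher, it was the lowest sgCon tumor for 7.

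Markers of the tumor cells and of myeloid cells leaned in 1 direction within each list. All 10 epithelial markers had a log2 fold change below 0 (median -0.50), 5 of them at an unadjusted p below 0.05 and 2 called lower by DESeq2. Their sum was 2241 to 5254 CPM in sgCon tumors, 4079 CPM in sgTaz tumor 2 and 1654 to 2259 CPM in the other 4 sgTaz tumors. All 9 macrophage markers had a log2 fold change above 0 (median 0.46), 5 of them at an unadjusted p below 0.05 and 3 called higher by DESeq2, and they summed to 791 to 1853 CPM in the sgCon group and 1534 to 2138 CPM in the sgTaz group. All 7 neutrophil markers tested had a log2 fold change below 0 (median -0.96), 3 of them at an unadjusted p below 0.05 and 0 called by DESeq2, with sums of 363 to 1154 CPM and 216 to 651 CPM. No marker of these 3 lists was at 0 in any tumor. The part of these cells in the members' values was not tested.

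**Figure D1:**
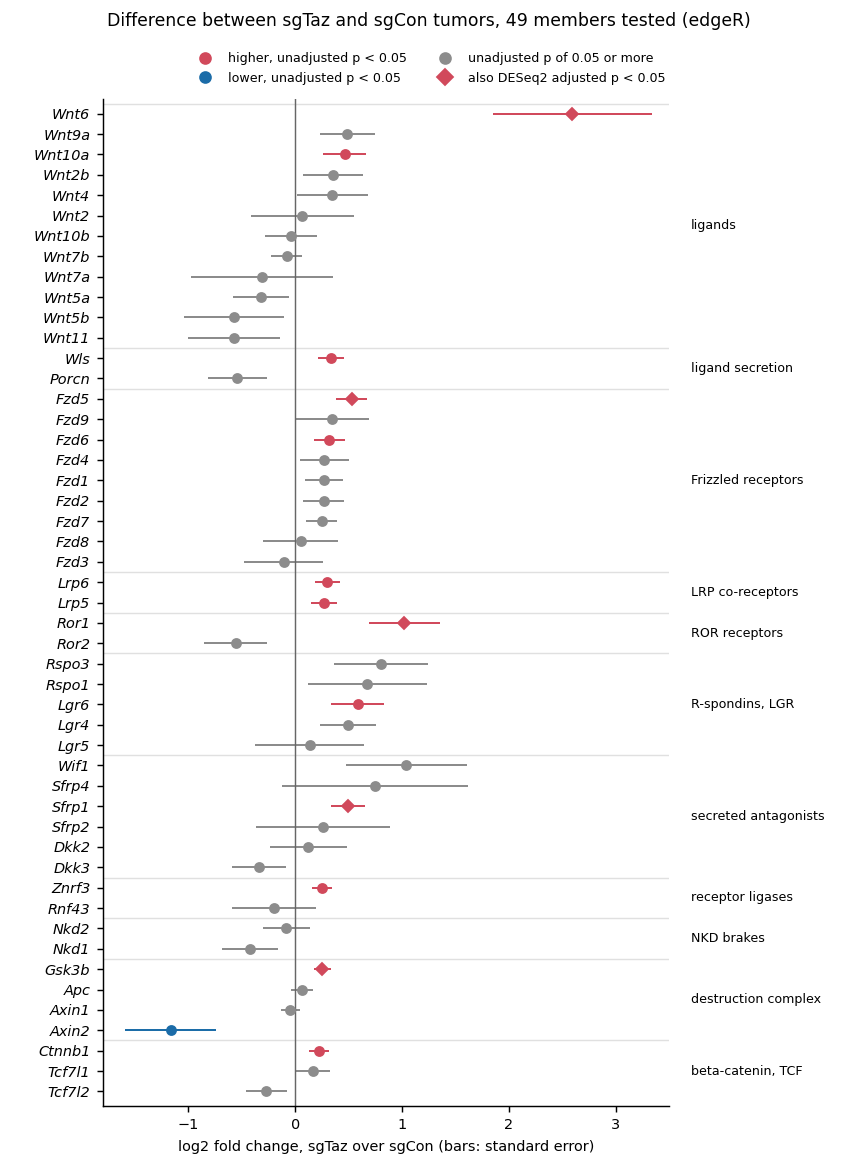
Log2 fold change (horizontal axis, sgTaz over sgCon, edgeR) of the 49 members tested, grouped by their role in the pathway, with bars for the standard error. Wnt6 lies farthest to the right at 2.59 and Axin2 farthest to the left at -1.17, and most receptors and co-receptors lie between 0.2 and 0.6.

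Levels were compared between genes as FPKM, that is, per kilobase of exon. Ctnnb1 had the highest mean level of the members at 216 FPKM over the 10 tumors, followed by Wnt7b at 41.2, the ligand carrier Wls at 24.2, Axin1 at 18.5, Sfrp1 at 13.3 and Lgr6 at 13.0 FPKM. Wnt7b alone made up 42.6% to 63.7% of the summed FPKM of all ligands in a tumor. Fzd7 led the Frizzled receptors, with 27.8% to 35.3% of their sum. The summed FPKM of the 15 ligands averaged 72.2 ± 10.3 in sgCon and 81.7 ± 20.8 in sgTaz tumors (SD, n = 5 each), and that of the 10 Frizzled receptors was 35.0 ± 6.70 and 42.6 ± 3.04 (SD, n = 5 each).

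**Figure D2:**
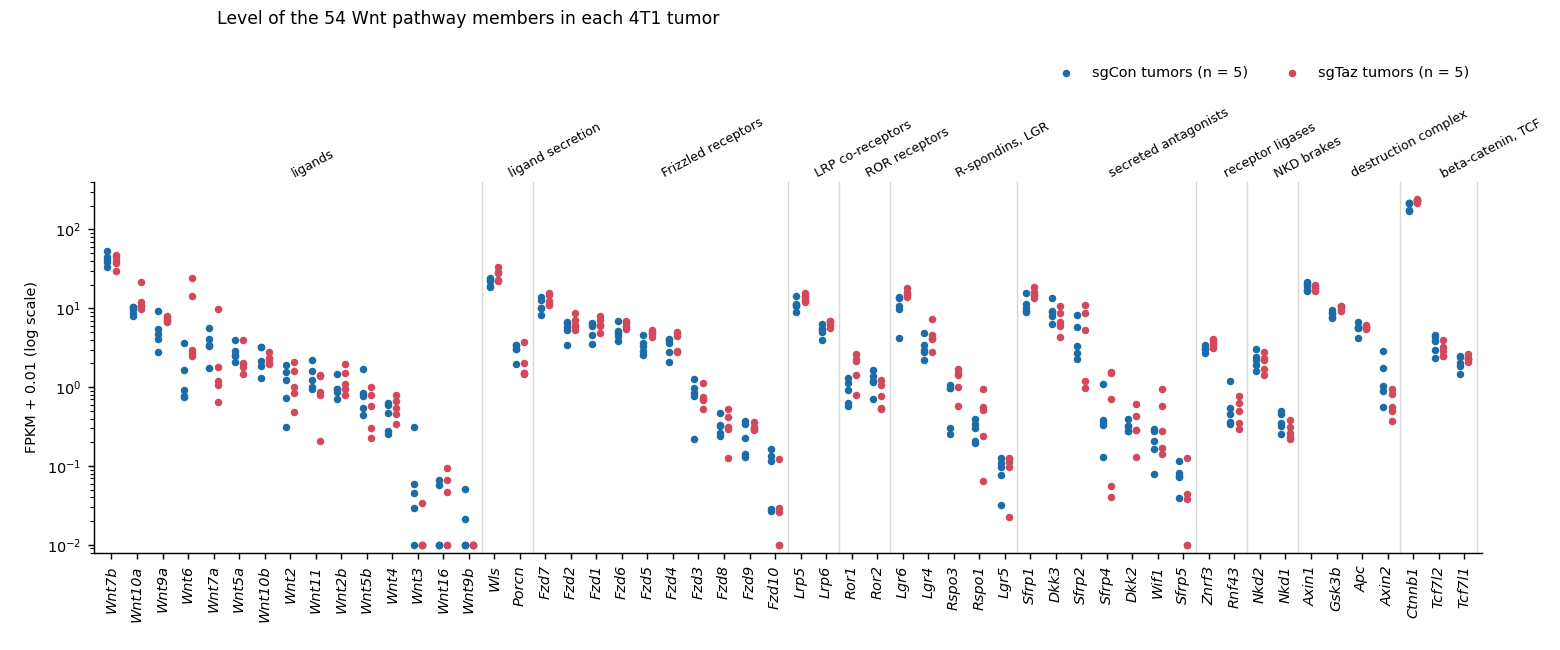
FPKM plus 0.01 on a log axis for each of the 54 members, ordered by role and by mean level, with 5 sgCon tumors in blue and 5 sgTaz tumors in red. Ctnnb1 stands above all other members in every tumor, Wnt7b above the other ligands, and Wnt6, Wnt7a, Sfrp2 and Sfrp4 spread widely within the sgTaz group.

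Among the ligands, Wnt6 and Wnt10a were higher at an unadjusted p below 0.05 and 10 of the 12 tested were not past it in either direction. Of all genes, 9.86% were higher and 11.9% lower at that threshold. Wnt6 (ENSMUSG00000033227.7, mm10 chr1:74771892-74785322, plus strand), an epithelial ligand, was at 1.62, 3.6, 1.68, 7.94 and 1.99 CPM in sgCon tumors and at 53.1, 31.4, 6.43, 5.50 and 5.89 CPM in sgTaz tumors. Tumors 1 and 2 of sgTaz were far above all others, while sgTaz tumors 3 to 5 lay within the sgCon range. Its log2 fold change was 2.59 (SE 0.74). The adjusted p was 0.106 in edgeR and 0.0233 in DESeq2, within 0.0233 to 0.233 over all settings. Without sgTaz tumor 1 the log2 fold change was 1.86, and limma-voom, which gives less weight to tumors far from their group, put it at 1.55.

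Wnt10a lies next to Wnt6, at mm10 chr1:74791516-74804179 on the same strand, 6193 bases further on and with no other gene of the table between them. It codes for a ligand active in mammary and skin epithelium. It was at 21.4, 25.5, 25.5, 24.1 and 19.9 CPM in sgCon tumors and at 26.7, 53.3, 26.7, 24.4 and 29.6 CPM in sgTaz tumors. The second sgTaz tumor stood far above the rest, sgTaz tumors 1, 3 and 5 were above every sgCon tumor by smaller steps, and sgTaz tumor 4 lay inside the sgCon range. Wnt10a had a log2 fold change of 0.46 (SE 0.20, edgeR adjusted p = 0.211), and 0.20 without sgTaz tumor 2. In sgTaz tumor 1, where Wnt6 was highest, Wnt10a was at 26.7 CPM, close to sgTaz tumors 3 to 5.

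The ligand with the highest level, Wnt7b, was at 261, 189, 165, 221 and 203 CPM in sgCon tumors and at 220, 234, 197, 185 and 144 CPM in sgTaz tumors. The groups overlapped over nearly their whole range, with a log2 fold change of -0.08 (SE 0.15). Wnt9a was at 18.0, 15.8, 9.17, 31.1 and 13.4 CPM in sgCon tumors and between 22.6 and 26.8 CPM in sgTaz tumors, with a log2 fold change of 0.49 (SE 0.26, edgeR adjusted p = 0.293) that was 0.80 without sgCon tumor 4 and 0.32 without sgCon tumor 3. All 5 sgTaz values of Wnt9a were above 4 of the sgCon tumors and below sgCon tumor 4. Wnt7a, named here after its values were seen, was at 17.8, 10.7, 5.49, 10.4 and 12.8 CPM in sgCon tumors and at 2.04, 31.1, 3.75, 3.32 and 5.75 CPM in sgTaz tumors. Its highest and its lowest value were thus both in sgTaz tumors, and its log2 fold change of -0.31 became -1.62 without sgTaz tumor 2, the sgTaz tumor with the most epithelial marker RNA, in which Wnt10a was also highest. limma-voom called Wnt7a lower with an adjusted p of 0.044, while over all settings the adjusted p was between 0.044 and 0.973. The remaining ligands tested, Wnt2, Wnt2b, Wnt4, Wnt5a, Wnt5b, Wnt10b and Wnt11, had log2 fold changes between -0.58 and 0.36.

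Both genes that every Wnt ligand needs for its release were measured. Wls, the carrier that brings ligands to the cell surface, was at 197, 199, 164, 212 and 168 CPM in sgCon tumors and at 257, 194, 245, 292 and 198 CPM in sgTaz tumors. In sgTaz, 3 of 5 tumors were above the sgCon range, and the log2 fold change was 0.33 (SE 0.12, edgeR adjusted p = 0.16). Porcn, the enzyme that adds the lipid, was at 10.3, 9.11, 5.86, 9.10 and 10.1 CPM in sgCon tumors and at 4.46, 11.0, 4.55, 6.07 and 4.44 CPM in sgTaz tumors. sgTaz tumor 2, again the one with the most epithelial marker RNA among sgTaz tumors, was the highest of all 10 and sgCon tumor 3 was below the other sgCon tumors, with a log2 fold change of -0.54 (SE 0.28, edgeR adjusted p = 0.276) that was -0.87 without sgTaz tumor 2. limma-voom gave Porcn an adjusted p of 0.0287, within 0.0287 to 0.473 over all settings.

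Of the 9 Frizzled receptors tested, 8 had a log2 fold change above 0, against 6961 of all 14816 genes tested. Fzd5 and Fzd6 were higher at an unadjusted p below 0.05, against 9.86% of all genes. Fzd5 (ENSMUSG00000045005.9, mm10 chr1:64730558-64737751, minus strand) was at 31.3, 22.9, 17.5, 24.8 and 19.8 CPM in sgCon tumors and at 36.7, 32.8, 34.8, 30.3 and 33.1 CPM in sgTaz tumors. The groups met only at their edges, since sgCon tumor 1 was above sgTaz tumor 4. Fzd5 differed by 0.53 on the log2 scale (SE 0.14), with an adjusted p of 0.10 in edgeR and 0.0153 in DESeq2, within 0.0153 to 0.239 over all settings. It stayed between 0.45 and 0.66 with each tumor left out in turn. Fzd5 shares 1233 exon bases (17.8% of its exon length) with a transcript on the opposite strand, Gm38058, and since the strand setting of the counting is not stated, reads of these 2 genes cannot be told apart in that stretch. Opposite transcripts also share exon bases with Sfrp2 (347 bases, 16.1%), Rspo3 (404, 13.1%), Wnt11 (364, 8.8%), Wnt7b (324, 6.6%) and Axin2 (209, 3.8%).

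Fzd6, a receptor better known for its part in planar cell polarity, had a log2 fold change of 0.32 (SE 0.14, edgeR adjusted p = 0.226), with 26.0 to 33.2 CPM in the sgTaz and 18.6 to 32.8 CPM in the sgCon group. The 3 Frizzled receptors with the highest levels, Fzd7, Fzd2 and Fzd1, had log2 fold changes of 0.25 (SE 0.15), 0.27 (SE 0.19) and 0.27 (SE 0.18). The groups overlapped for all of them, and sgCon tumor 3 held the lowest value of each. Without that tumor the log2 fold changes were 0.16 for Fzd7, 0.14 for Fzd2 and 0.16 for Fzd1. Fzd3, Fzd4, Fzd8 and Fzd9 had log2 fold changes between -0.11 and 0.35.

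The LRP co-receptors, which pair with Frizzled proteins to pass the signal to beta-catenin, were both higher at an unadjusted p below 0.05. Lrp5 was at 141, 108, 87.8, 109 and 105 CPM in sgCon tumors and at 134, 123, 151, 138 and 118 CPM in sgTaz tumors. Lrp6 was at 87.1, 74.8, 53.4, 68.8 and 75.3 CPM in sgCon tumors and at 83.1, 77.6, 91.7, 94.6 and 95.6 CPM in sgTaz tumors. For both, sgCon tumor 1 was inside the sgTaz range and the other 4 sgCon tumors were below every sgTaz tumor. The log2 fold changes were 0.27 for Lrp5 (SE 0.12, edgeR adjusted p = 0.212) and 0.30 for Lrp6 (SE 0.12, edgeR adjusted p = 0.181).

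Ror1 (ENSMUSG00000035305.5, mm10 chr4:100095791-100444765, plus strand) and Ror2 code for receptor kinases that take up Wnt ligands without beta-catenin. Ror1 was at 5.22, 7.56, 3.31, 6.49 and 3.56 CPM in sgCon tumors and at 8.21, 4.52, 15.1, 13.1 and 12.2 CPM in sgTaz tumors. sgTaz tumors 3 to 5 were the highest, and sgTaz tumor 2 lay inside the sgCon range. The log2 fold change of Ror1 was 1.02 (SE 0.33), with an adjusted p of 0.131 in edgeR and 0.04 in DESeq2, within 0.04 to 0.292 over all settings. Ror2 had a log2 fold change of -0.56 (SE 0.30, edgeR adjusted p = 0.294), with 2.23 to 5.24 CPM in the sgTaz and 2.93 to 6.98 CPM in the sgCon group, and the groups overlapped. Ror1 made up 27.3% to 81.0% of the summed FPKM of both genes in a tumor.

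R-spondins strengthen Wnt signals by binding LGR receptors and drawing off the ligases that remove Frizzled proteins. All 5 genes of this kind that were tested had a log2 fold change above 0, against 6961 of all 14816 genes tested. Lgr6, a marker of epithelial stem cells in skin, was higher at an unadjusted p below 0.05. Lgr6 (ENSMUSG00000042793.13) was at 91.4, 73.5, 28.6, 94.1 and 67.8 CPM in sgCon tumors and at 111, 99.6, 123, 103 and 96.0 CPM in sgTaz tumors. It was the only member without overlap, by a gap of 94.1 to 96.0 CPM. Its log2 fold change was 0.58 (SE 0.25, edgeR adjusted p = 0.204), and 0.39 without sgCon tumor 3, the lowest. limma-voom gave an adjusted p of 0.0485, within 0.0485 to 0.372 over all settings.

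Lgr4 had a log2 fold change of 0.49 (SE 0.26, edgeR adjusted p = 0.288), which was 0.26 without sgTaz tumor 1, its highest tumor at 43.0 CPM. Lgr5, both a stem cell marker and a Wnt target in the gut, stayed at or below 1.20 CPM in every tumor, with a log2 fold change of 0.13 (SE 0.51) that was -0.11 without sgCon tumor 4. Rspo1 and Rspo3, ligands from stromal cells in many tissues, had log2 fold changes of 0.68 (SE 0.55) and 0.80 (SE 0.44) at low levels. Rspo3 was at 0.753 to 3.27 CPM in sgCon tumors and at 1.74 to 5.2 CPM in sgTaz tumors, and the groups overlapped.

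Secreted antagonists catch Wnt ligands (the SFRP proteins and Wif1) or block the LRP co-receptors (DKK proteins). Sfrp1 (ENSMUSG00000031548.7, mm10 chr8:23411502-23449632, plus strand) was the antagonist with the highest level, and the one of 6 tested that was higher at an unadjusted p below 0.05. It was at 43.6, 49.8, 69.3, 38.8 and 40.2 CPM in sgCon tumors and at 81.7, 64.8, 63.5, 59.3 and 70.6 CPM in sgTaz tumors. Only sgCon tumor 3 reached the sgTaz range, and the other 4 sgCon tumors were below all sgTaz tumors. Sfrp1 differed by 0.49 on the log2 scale (SE 0.16), with an adjusted p of 0.127 in edgeR, 0.0456 in DESeq2 and 0.0283 in limma-voom, within 0.0283 to 0.265 over all settings. Without sgCon tumor 3 and sgTaz tumor 5 it was 0.66, with an edgeR adjusted p of 0.0377.

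Dkk3, a DKK protein that does not clearly block Wnt signals, had a log2 fold change of -0.34 (SE 0.25), with overlapping groups, which was -0.52 without sgTaz tumor 2 and -0.16 without sgCon tumor 5. Sfrp2, mostly made by fibroblasts, was at 7.21, 17.9, 4.93, 12.5 and 5.82 CPM in sgCon tumors and at 2.55, 2.07, 11.6, 18.5 and 23.5 CPM in sgTaz tumors. Sfrp4, named after its values were seen, was at 1.56, 4.55, 0.499, 1.33 and 1.44 CPM in sgCon tumors and at 0.127, 0.194, 2.95, 6.56 and 6.26 CPM in sgTaz tumors. For both genes sgTaz tumors 1 and 2 were below every sgCon tumor, and sgTaz tumors 4 and 5 were above every sgCon tumor, so that the log2 fold changes of 0.26 (SE 0.62) and 0.75 (SE 0.87) average opposite values. That of Sfrp2 was -0.17 without sgTaz tumor 5 and 0.60 without sgCon tumor 2, and that of Sfrp4 was 0.32 without sgTaz tumor 4 and 1.39 without sgCon tumor 2. Dkk2 and Wif1 had log2 fold changes of 0.12 and 1.04 (SE 0.36 and 0.57), each at no more than 2.27 CPM, and that of Wif1 was 0.52 without sgTaz tumor 4.

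The same split of the sgTaz tumors was seen in adipocyte markers. These summed to 60.9 and 45.9 CPM in sgTaz tumors 1 and 2, to 218, 204 and 227 CPM in sgTaz tumors 3 to 5, and between 71.9 and 122 CPM in the sgCon group. All 7 adipocyte markers tested had a log2 fold change above 0 (median 1.29), 0 of them at an unadjusted p below 0.05, and Plin1 and Lep were at 0 in at least 1 tumor. The summed fibroblast markers were at 1962, 3784, 4260, 4955 and 5328 CPM in the sgTaz group and at 1972 to 5343 CPM in the sgCon group, with sgTaz tumor 1 lowest. Of the 12, 8 had a log2 fold change above 0 and 4 below (median 0.14), with 2 higher and 1 lower at an unadjusted p below 0.05. DESeq2 called 1 higher and 1 lower. Within the sgTaz group, Col1a1, Col1a2, Pdgfra, Pdgfrb and Thy1 did not follow the split. The other fibroblast markers were lowest in sgTaz tumors 1 and 2, such as Dpt at 3.95, 2.71, 17.6, 37.9 and 42.3 CPM. Summed endothelial markers followed the split too, at 413 and 344 CPM in sgTaz tumors 1 and 2 and at 575, 691 and 642 CPM in sgTaz tumors 3 to 5. They were at 413 to 580 CPM in the sgCon group. Of 8 tested, 6 had a log2 fold change above 0 and 2 below (median 0.12), 0 of them at an unadjusted p below 0.05. Sfrp2, Sfrp4 and Ror1 were thus highest in the sgTaz tumors with the highest adipocyte and endothelial markers, and Wnt6 in those with the lowest. The part of these cells in the differences was not tested, and in bulk RNA fewer cells of a type and less RNA per cell cannot be told apart.

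**Figure D3:**
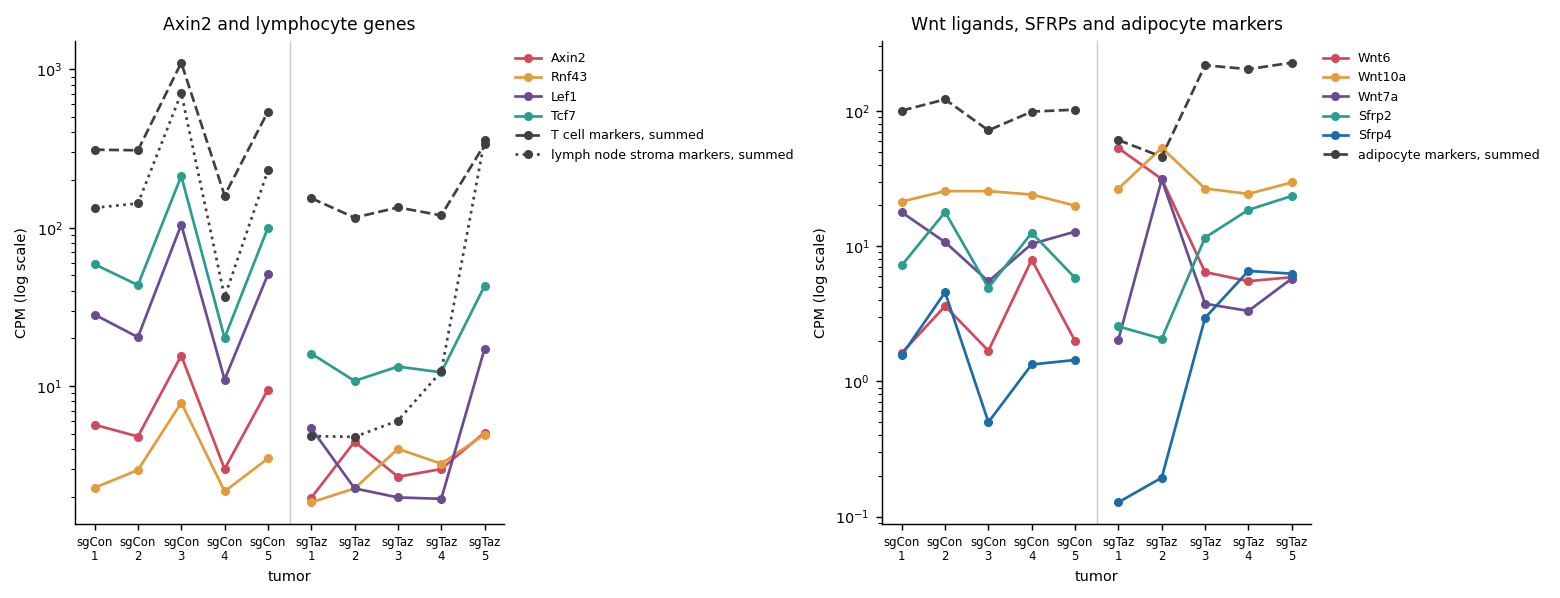
CPM on a log axis (vertical) in each of the 10 tumors (horizontal). Left, Axin2, Rnf43, Lef1 and Tcf7 beside the summed T cell and lymph node stroma markers, all of which peak in sgCon tumor 3 among sgCon tumors. Right, Wnt6, Wnt10a, Wnt7a, Sfrp2 and Sfrp4 beside the summed adipocyte markers. In that panel sgTaz tumors 1 and 2 differ from sgTaz tumors 3 to 5 for Wnt6, Sfrp2, Sfrp4 and the adipocyte markers, and sgTaz tumor 2 alone stands apart for Wnt10a and Wnt7a.

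Beta-catenin and the destruction complex form the core of the pathway. Ctnnb1 (ENSMUSG00000006932.17) was at 1134, 1125, 911, 1123 and 885 CPM in sgCon tumors and at 1281, 1111, 1226, 1226 and 1185 CPM in sgTaz tumors. All sgTaz tumors but the second were above every sgCon tumor, and the log2 fold change was 0.22 (SE 0.09, edgeR adjusted p = 0.201). Ctnnb1 shares 759 exon bases (14.6% of its exon length) with Ulk4 on the opposite strand. These are RNA levels, and beta-catenin is regulated mainly as a protein.

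Gsk3b (ENSMUSG00000022812.14, mm10 chr16:38089001-38246084, plus strand), the kinase that marks beta-catenin, was at 94.3, 86.3, 77.0, 74.5 and 86.0 CPM in sgCon tumors and at 104, 89.9, 105, 97.4 and 101 CPM in sgTaz tumors. Only sgTaz tumor 2 lay inside the sgCon range. The log2 fold change was small, at 0.25 (SE 0.08), with an adjusted p of 0.125 in edgeR, 0.0321 in DESeq2 and 0.043 in limma-voom, within 0.0321 to 0.273 over all settings. The scaffolds of the complex, Apc and Axin1, had log2 fold changes of 0.06 (SE 0.11) and -0.05 (SE 0.09), and the tumors of both groups were mixed in their order. Among the TCF factors, Tcf7l1, known as a repressor, had a log2 fold change of 0.17 (SE 0.16) and Tcf7l2 of -0.27 (SE 0.19). These were 0.07 for Tcf7l1 without sgCon tumor 3 and -0.17 for Tcf7l2 without sgCon tumor 5.

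**Figure D4:**
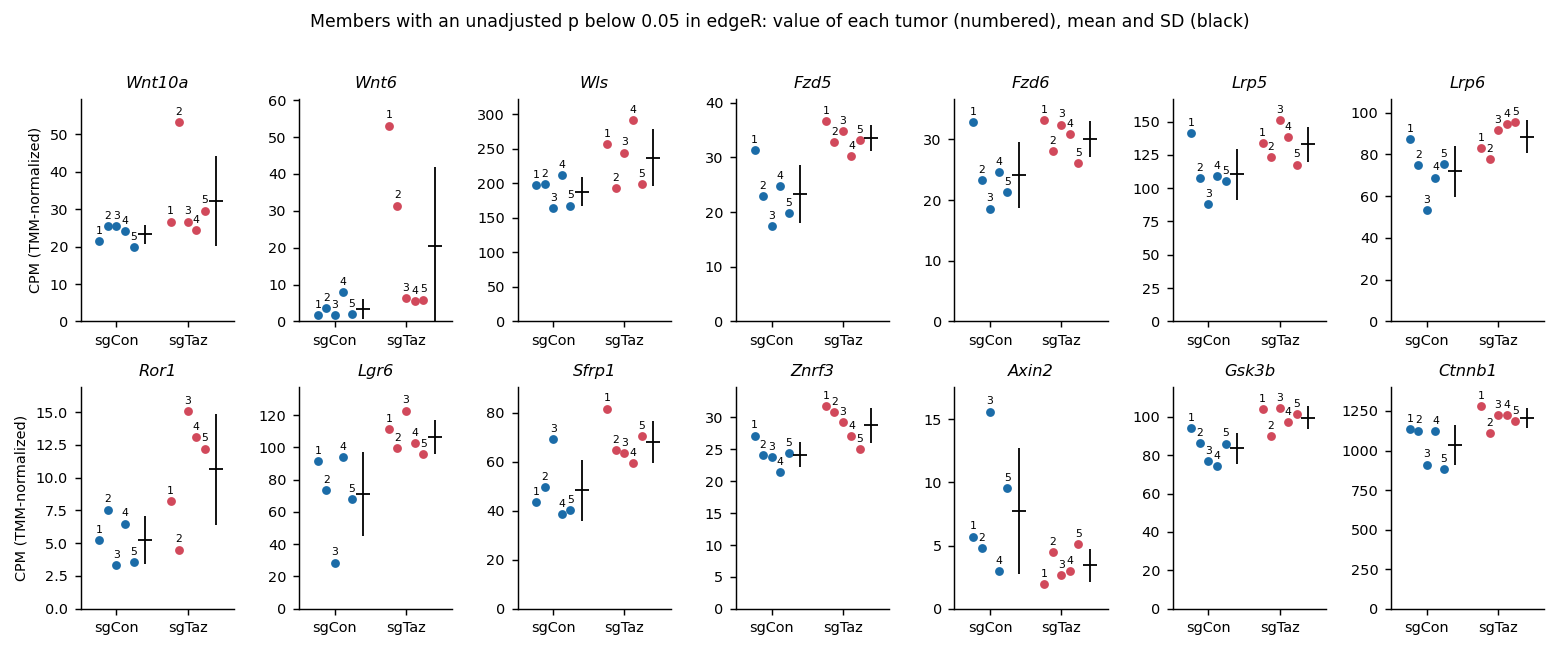
CPM (vertical axis, starting at 0) of the 14 members with an unadjusted p below 0.05 in edgeR, with each tumor as a numbered point and the mean and SD of each group in black (n = 5 each). The SD bar of Wnt6 in sgTaz tumors reaches below 0 and ends at the axis. The groups are apart for Lgr6 alone, and sgCon tumor 3 is the lowest sgCon tumor of 7 panels and the highest for Axin2 and Sfrp1.

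Axin2 (ENSMUSG00000000142.15, mm10 chr11:108920349-108950783, plus strand), a brake on beta-catenin that is itself turned on by the pathway, was the one member lower at an unadjusted p below 0.05. It was at 5.70, 4.81, 15.6, 3.0 and 9.52 CPM in sgCon tumors and at 1.97, 4.46, 2.68, 2.99 and 5.09 CPM in sgTaz tumors. sgCon tumor 3 was the highest by far, and sgTaz tumors 2 and 5 lay inside the sgCon range. The log2 fold change was -1.17 (SE 0.43, edgeR adjusted p = 0.16), and -0.73 without sgCon tumor 3, where its unadjusted p was no longer below 0.05. Under every other setting that p was below 0.05, also without sgCon tumor 3 and sgTaz tumor 5 together.

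The order of the sgCon tumors for Axin2 (3, 5, 1, 2, 4 from high to low) was also that of the summed T cell markers, at 1101, 541, 311, 308 and 160 CPM. Summed nerve and Schwann cell markers had that order too, at 86.9, 66.2, 55.8, 45.6 and 40.5 CPM. In sgTaz tumors 1 to 5, the T cell markers were at 154, 116, 134, 120 and 337 CPM. Those of nerve and Schwann cells were at 34.9, 44.6, 40.5, 34.7 and 55.4 CPM. Tumor 5 was the highest for Axin2 and for both lists, and the other 4 were not in the order of Axin2 for either list. Of 5 nerve and Schwann cell markers tested, 4 had a log2 fold change below 0 (median -0.51), and 0 had an unadjusted p below 0.05. All 10 T cell markers had a log2 fold change below 0 (median -1.73), 9 of them at an unadjusted p below 0.05, and none of the 10 was at 0 in any tumor. The summed lymph node stroma markers were at 707 CPM in sgCon tumor 3 and 357 CPM in sgTaz tumor 5, against 36.5 to 230 in the other sgCon tumors and 4.78 to 12.4 in the other sgTaz tumors. In sgTaz tumors 1 to 3, Glycam1, a marker of the vessels of lymph nodes, was at 0. The part of these cells in the level of Axin2 was not tested.

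Of the other 4 feedback targets among the members, Znrf3 and Lgr5 had a log2 fold change above 0 and Rnf43 and Nkd1 one below 0. Znrf3, a ligase that removes Frizzled receptors, was at 27.1, 24.1, 23.8, 21.5 and 24.4 CPM in sgCon tumors and at 31.8, 30.8, 29.3, 27.0 and 25.0 CPM in sgTaz tumors. In sgTaz, 3 of 5 tumors were above the sgCon range, and the log2 fold change was 0.25 (SE 0.10, edgeR adjusted p = 0.168). Rnf43, its close relative, had a log2 fold change of -0.20 (SE 0.40), which was 0.27 without sgCon tumor 3. For Rnf43 that tumor was at 7.86 CPM and the other 9 were between 1.85 and 4.95 CPM. Nkd1, an inhibitor of Dishevelled, had a log2 fold change of -0.42 (SE 0.26), and Lgr5 is given above. The 5 feedback targets, Axin2 included, had a median log2 fold change of -0.20. At an unadjusted p below 0.05, 1 was higher and 1 lower, against 9.86% and 11.9% of all genes.

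Sequence upstream of the start is shown for the 3 members that mark the range of the results: Wnt6 with the highest log2 fold change, Axin2 with the lowest, and Ror1, the one of the 5 DESeq2 calls with the highest fold after Wnt6. RefSeq promoters of GRCm38.p6 were matched for 36 of the 54 members, with 42 windows of 250 bases before to 50 bases after a start. Of each window, the 250 bases before the start are printed, 5′ to 3′ on the strand of the gene. Capitals mark the letters TCAAAG, the reverse complement of CTTTGA, a core of TCF and LEF binding sites. The stretches are chr1:74771642-74771891 for Wnt6, chr11:108920099-108920348 for Axin2 and chr4:100095541-100095790 for Ror1, all on the plus strand.
Wnt6: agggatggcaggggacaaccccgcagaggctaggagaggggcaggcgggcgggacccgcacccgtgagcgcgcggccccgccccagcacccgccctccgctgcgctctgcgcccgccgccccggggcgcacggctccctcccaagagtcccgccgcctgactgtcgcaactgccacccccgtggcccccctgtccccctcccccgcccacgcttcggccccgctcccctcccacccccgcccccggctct
Axin2: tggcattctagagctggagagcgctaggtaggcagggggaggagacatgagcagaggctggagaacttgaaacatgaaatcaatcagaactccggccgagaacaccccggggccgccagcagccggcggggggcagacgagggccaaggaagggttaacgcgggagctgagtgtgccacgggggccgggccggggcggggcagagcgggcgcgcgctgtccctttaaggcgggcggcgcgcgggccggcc
Ror1: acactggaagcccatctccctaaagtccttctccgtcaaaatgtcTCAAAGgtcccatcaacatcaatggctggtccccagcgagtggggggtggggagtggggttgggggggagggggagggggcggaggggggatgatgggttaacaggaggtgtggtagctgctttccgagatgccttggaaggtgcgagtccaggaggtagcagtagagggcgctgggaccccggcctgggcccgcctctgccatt

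The G and C content of these stretches was 79.6% for Wnt6, 69.2% for Axin2 and 62.4% for Ror1. CTTTGA or TCAAAG was in 5 of the 42 windows of members (11.9%) and in 16.0% of all 32851 windows. Those of Fzd1, Gsk3b, Ror1, Wnt11 and Wnt5b held it, of which Gsk3b and Ror1 were higher at an unadjusted p below 0.05. CATTCC or GGAATG, the core to which TEAD factors, the partners of TAZ, bind, was in 2 windows of members (4.76%), of Lgr4 and Wnt5b, and in 14.7% of all windows. Both motifs were searched on both strands, and the windows of Wnt6 and Axin2 held neither. A match of these letters is a description of the window and not a binding site. Only these exact letters were searched, and only in these windows, so a window without a match does not show that a gene lacks such sites.

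Among 48 other genes of the pathway that are in the table (glypicans, Dishevelled and its regulators, TCF co-factors and others), 45 were tested. Of these, 7 were higher and 6 lower at an unadjusted p below 0.05 in edgeR and 0 had an adjusted p below 0.05, against 9.86%, 11.9% and 0.00675% of all genes tested, while DESeq2 called 4 higher and 4 lower, against 3.6% and 3.62%. Gpc4, a proteoglycan that holds Wnt ligands at the cell surface, was at 27.7, 21.5, 19.2, 25.8 and 18.1 CPM in sgCon tumors and at 52.4, 28.9, 50.6, 34.3 and 35.0 CPM in sgTaz tumors. All sgTaz tumors were above all sgCon tumors, with a log2 fold change of 0.84 (SE 0.19, adjusted p = 0.0896 in edgeR and 0.00218 in DESeq2). Bcl9, a co-activator that binds beta-catenin, was at 65.3 to 68.7 CPM in sgCon tumors and at 78.1 to 102 CPM in sgTaz tumors, again without overlap (log2 fold change 0.38, SE 0.09, adjusted p = 0.096 in edgeR and 0.00693 in DESeq2). Dact3, an inhibitor that binds Dishevelled, was at 3.37 to 5.06 CPM in sgCon tumors and at 2.10 to 3.10 CPM in sgTaz tumors, without overlap on the lower side (log2 fold change -0.81, SE 0.18, adjusted p = 0.0903 in edgeR and 0.00916 in DESeq2). Celsr1, a cadherin of planar cell polarity, had a log2 fold change of -0.68 (SE 0.17, adjusted p = 0.096 in edgeR and 0.0121 in DESeq2).

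Lef1 and Tcf7, the TCF factors of lymphocytes, are named after their values were seen. Lef1 was at 28.3, 20.4, 105, 11.0 and 50.7 CPM in sgCon tumors and at 5.41, 2.26, 1.98, 1.94 and 17.2 CPM in sgTaz tumors. Its order over the sgCon tumors was that of Axin2, of the T cell markers and of the nerve and Schwann cell markers. sgTaz tumor 5 was the one sgTaz tumor inside the sgCon range. The log2 fold change was -2.91 (SE 0.75, adjusted p = 0.096 in edgeR and 0.0120 in DESeq2), and -3.22 without sgCon tumor 3 and sgTaz tumor 5, with an edgeR adjusted p of 0.0253. Tcf7 had a log2 fold change of -2.19 (SE 0.60, adjusted p = 0.101 in edgeR and 0.0208 in DESeq2), and of -2.06 without these 2 tumors, with an edgeR adjusted p of 0.0393. The 2 tumors were left out, after the data were seen, for their high values of lymphocyte genes. For Lef1 and Tcf7, genes of lymphocytes, a lower adjusted p in that fit is therefore no added support. The T cell markers of all tumors were given with Axin2, and the part of lymphocytes in these values was not tested.

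Of 12 other Wnt target genes tested, 2 were higher and 1 lower at an unadjusted p below 0.05, against the same 9.86% and 11.9% of all genes. DESeq2 called 1 higher and 1 lower, against 3.6% and 3.62%. Tnfrsf19, a receptor also known as Troy, was between 13.8 and 26.6 CPM in sgCon tumors and at 71.3, 33.7, 41.1, 38.1 and 30.3 CPM in sgTaz tumors. The groups did not overlap, with a log2 fold change of 1.19 (SE 0.25, adjusted p = 0.0824 in edgeR and 0.0006 in DESeq2). Without sgCon tumor 3 and sgTaz tumor 5 it was 1.33, with an edgeR adjusted p of 0.0471. Ccnd1 and Ccnd2, cyclins of the early cell cycle, had log2 fold changes of 0.31 (SE 0.13, edgeR adjusted p = 0.209) and -0.58 (SE 0.18, edgeR adjusted p = 0.125). In DESeq2 their adjusted p was 0.133 and 0.0448. For Ccnd2, sgCon tumor 3 was again the highest at 176 CPM, against 92.7 to 122 in the other sgCon tumors and 64.3 to 102 in sgTaz tumors. Ephb2, a receptor that sorts cells in the gut, had a log2 fold change of -0.36 (SE 0.23), and the groups overlapped.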

How the data were processed

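Total RNA of 10 whole 4T1 tumors (5 sgCon, 5 sgTaz) was sequenced on an Illumina HiSeq. The authors aligned the reads (STAR 2-pass, mm10, GENCODE annotation) and counted reads per gene with featureCounts of Subread; tool versions and the strand setting are not given in the sources used here. The values deposited by the authors are raw counts without normalization. Tumors were assigned by column name and label, and 5 further columns of the table, which match no sample, were not used. Identifiers were named by GENCODE M21, 17673 in full and 187 without their version. 3 counts are 1.53e-05% to 2.46e-05% of a tumor's total, and this floor covers counting error only.

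Counts were analysed with edgeR 4.0.16 (TMM, filterByExpr, glmQLFit and glmQLFTest without covariates) in R 4.3.3, and p-values were adjusted by Benjamini-Hochberg over all 14816 genes tested. The model fits were tested on simulated counts. Of the genes called there at an adjusted p below 0.05, some had no simulated difference. These were 7 of 161 in edgeR, 32 of 200 in DESeq2 and 9 of 168 in limma-voom. The simulated differences were 1 or 2 on the log2 scale. At 1, edgeR recovered 64.6% of 99 genes, DESeq2 77.8% and limma-voom 68.7%. Each gene was drawn on its own, without shifts in cell types, so these numbers may not hold for the tumors or for smaller differences. Standard errors come from the quasi-likelihood statistic. FPKM is the TMM-normalized CPM per kilobase of summed exons. Alternatives were DESeq2 1.42.0, limma-voom with quality weights (limma 3.58.1), RLE and upper-quartile scaling, no filter, at least 10 counts in every tumor, the replicate number as a block, each tumor left out, exon length of the longest transcript for FPKM and a prior count of 0.5 in place of 2 for marker lists. Leaving out sgCon tumor 3 and sgTaz tumor 5 together was chosen after seeing the data.

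The members, marker lists and lists of other genes were chosen with earlier results of these data known, so that no list is independent evidence. Named in full are members with an unadjusted p below 0.05 or a DESeq2 call, the pathway's core and feedback targets, the 3 ligands, 3 Frizzled receptors, 3 antagonists and 2 R-spondin or LGR genes with the highest FPKM, and up to 4 other genes per list with the smallest p. Labels give a tumor number but no other detail of the animals, so p-values measure the spread between these tumors.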

Additional observations from a re-analysis of the deposited data

Results flagged for a closer look

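In 60 groups of 5 tumors (30 named members in 2 groups), 5 values lay far from the other 4 by Dixon's ratio, where chance gives about 3 (1 in 20). Porcn was at 5.86 CPM in sgCon tumor 3, against 9.10 to 10.3 in the other sgCon tumors, and at 11.0 CPM in sgTaz tumor 2, against 4.44 to 6.07 in the other sgTaz tumors. Rnf43 was at 7.86 CPM in sgCon tumor 3, against 2.16 to 3.49. Wnt10a was at 53.3 CPM in sgTaz tumor 2, against 24.4 to 29.6. Lgr5 was at 0.127 CPM in sgTaz tumor 1, against 0.904 to 1.18, a level of few reads.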

How the results depend on the processing

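The count of genes called over the whole table at an adjusted p below 0.05, 1 in edgeR with TMM, was 1070 in DESeq2, 1546 in limma-voom, 5 with at least 10 counts in every tumor, and 187 without sgCon tumor 3 and sgTaz tumor 5. It was 0 in edgeR without a filter, where 1759 genes were higher and 1851 lower at an unadjusted p below 0.05, and 0 with the replicate number as a block (1064 higher, 1398 lower). With each tumor left out in turn it was between 0 and 172, the latter without sgTaz tumor 5, and 75 without sgTaz tumor 2. It was 5 without sgCon tumor 3 or 4, and 0 without sgCon tumor 1 or 5 or sgTaz tumor 1, 3 or 4, where 1032 to 1595 genes were higher at an unadjusted p below 0.05. Wnt members called were 5 in DESeq2, 7 in limma-voom, 1 without both tumors and 0 under every other setting.

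Members higher at an unadjusted p below 0.05, 13 in edgeR, were 7 to 12 with each tumor left out, with 7 without sgTaz tumor 4 and 8 without sgCon tumor 5. All 7 and all 8 were among the 13. Ctnnb1, Fzd6, Lgr6 and Lrp5 were absent from both. Members lower, 1 in edgeR, were 8 in limma-voom, 2 without a filter, with the block or without both tumors, and 1 to 4 with each tumor left out (3 without sgCon tumor 3, where Axin2 was not among them, 4 without sgTaz tumor 2 and 2 without sgTaz tumor 5).

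Tumor numbers do not pair the samples: deviations of same-numbered tumors correlated between -0.243 and 0.221, and 1 of 10 tumors correlated best with its own number. With the block, 12 members were higher, 11 of them among the 13.

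Of 539 alternatives for the log2 fold changes of 30 named members, 513 kept the direction and the side of the threshold, 12 passed it and 14 turned the direction, all of these for members whose edgeR value was within its SE of 0. Without both tumors, Axin1 was at 0.044, Lgr5 at -0.0090, Rnf43 at 0.083 and Sfrp2 at -0.32. Sfrp2 was at -0.020 with the block, and Rnf43 at 0.22 in limma-voom. With each tumor left out, Apc was between -0.026 and 0.13, Axin1 between -0.092 and 0.0063, Lgr5 between -0.11 and 0.42, Rnf43 between -0.39 and 0.27, Sfrp2 between -0.17 and 0.60, and Wnt7b between -0.15 and 0.015. The cause was not tested. With the longest transcript as the length, 22 of 60 mean FPKM values moved by more than the spread between tumors. Depth limits Lgr5 and the 5 members below the filter, and also Fzd9, Rspo1, Wif1 and Dkk2, all with at most 31 counts in any tumor. Sfrp4 had 2 and 3 counts in sgTaz tumors 1 and 2.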
